A study of Canis lupus familiaris with 186 samples.

Results

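The inflammatory caspases and inflammasome genes examined here are CASP4, CASP12, NLRP3, PYCARD and GSDMD. They were taken by name as 5 of the 37952 genes in the deposited count table, with earlier results of these data known. All 5 passed the filter on low counts that left 13422 genes. The libraries come from primary appendicular osteosarcomas of 186 privately owned pet dogs of varied age, breed and sex, sampled before any treatment. The sample labels place 93 dogs in the trial COTC021 and 93 in the trial COTC022. Each dog is called below by a running number within its trial, written as a replicate, which pairs no dogs. Each tumor gave 1 library of polyadenylated RNA, so the spread within a trial is a spread between dogs, and no healthy bone was among the samples. Depth ran from 6587631 to 27420857 counts per library, with a median of 10797162. For 50 libraries, 18 from COTC021 and 32 from COTC022, the name in the deposited table is written differently, and their median depth was 19440449 against 9851681 in the other 136. They are called below the 50 libraries of greater depth, but the split is by name alone. The deepest library, with 27420857 counts, is among the other 136. What the names mean is not given.

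An inflammasome is a protein assembly that myeloid cells build when they sense damage or microbial products. NLRP3 is a sensor, and PYCARD, also called ASC, is the adaptor that links the sensor to an inflammatory caspase. The caspase matures interleukin-1 family cytokines and cuts GSDMD, gasdermin D, whose freed fragment forms pores in the plasma membrane and causes the lytic death known as pyroptosis. CASP4 senses bacterial lipopolysaccharide in the cytosol of human cells, and in carnivores the gene carries parts derived from CASP1, so that the annotation lists CASP1 as another name of dog CASP4. CASP12 lies beside it and is a caspase of the same group that is inactive in most people.

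On the build UU_Cfam_GSD_1.0, CASP4 spans chromosome 5 from 27257464 to 27271644, and CASP12 spans 27286329 to 27300448 on the same chromosome, 14684 bases further on. NLRP3 spans 337026 to 389302 on chromosome 8, PYCARD 17211709 to 17213472 on chromosome 6, and GSDMD 37965884 to 37971607 on chromosome 13. Counts were summed over each whole gene. Long non-coding RNAs overlap CASP4, CASP12 and PYCARD. The kit marks strand, but the strand setting of the counting is not given in the sources used here. The RNA overlapping CASP12, LOC106558805, had a median of 6 counts, reached 10 counts in 59 libraries and correlated with CASP12 at r = 0.43. LOC119871825 over CASP4 and LOC119872172 over PYCARD had medians of 1 and 0 counts.

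CASP4 ranged from 0.544 to 65.8 CPM (counts scaled to the library total) across the 186 tumors, with a median of 4.52. It had at least 10 counts in 182 libraries. CASP12 ranged from 0 to 64.7 CPM with a median of 1.84, and reached 10 counts in 142 libraries. Its median was 22.0 counts per library. In 4 libraries, all from COTC022, CASP12 had 0 counts, and at their depth 3 counts, the upper limit that a count of 0 allows, come to between 0.244 and 0.35 CPM. Such limits cover counting error only. NLRP3 ranged from 0.082 to 43.4 CPM with a median of 4.08, and 180 libraries held at least 10 counts. PYCARD and GSDMD reached 10 counts in all 186 libraries. PYCARD ranged from 1.17 to 87.2 CPM around a median of 11.9, and GSDMD from 6.38 to 229 CPM around a median of 36.0. Because transcript lengths were not used here, these levels are not compared between genes.

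The tumors differed more in these genes than in most genes tested. The SD of log2 CPM across dogs was 1.39 for CASP4, 1.47 for CASP12, 1.19 for NLRP3, 1.06 for PYCARD and 0.89 for GSDMD, against a median SD of 0.616 over all genes tested. The same tumors often stood at the top. COTC021 replicate 12 held the highest CASP4 level, 65.8 CPM, and the second highest levels of CASP12 and NLRP3, 23.0 and 39.4 CPM. COTC022 replicate 64 held the highest CASP12 level, 64.7 CPM, and COTC022 replicate 43 the highest levels of both NLRP3 and PYCARD, 43.4 and 87.2 CPM. GSDMD was highest elsewhere, at 229 CPM in COTC021 replicate 10, and the next tumor held 122 CPM. In COTC022 replicate 78, where CASP12 had no count and NLRP3 its lowest level, GSDMD was at 36.4 CPM, close to its median.

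**Figure D1:**
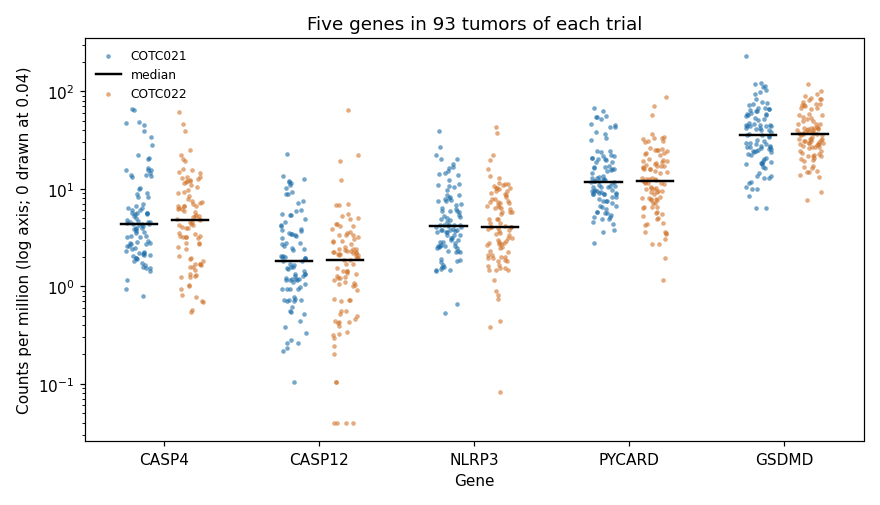
CPM of the 5 genes on a log axis, with 1 point per tumor, 93 tumors of each trial and a black line at the median of each trial. The medians of the trials lie close together for every gene, for example 35.9 and 36.4 CPM for GSDMD, and the 4 CASP12 points drawn at the bottom are libraries with 0 counts.

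None of the 5 genes differed between the trials beyond the spread between dogs. The difference, COTC022 minus COTC021 on the log2 scale, was -0.14 ± 0.21 (SE) for CASP4, -0.35 ± 0.24 for CASP12, -0.09 ± 0.18 for NLRP3, -0.08 ± 0.15 for PYCARD and 0.08 ± 0.13 for GSDMD, with limma adjusted p between 0.671 and 0.905. The background was low as well. Over all genes tested, 2 of 13422 were called (0.0149%). The direction depended on the group of libraries. In the 50 libraries with greater depth, all 5 differences were positive, from 0.47 to 0.55 (adjusted p between 0.762 and 0.794), and in the other 136 they were all negative, from -0.81 to -0.01 (adjusted p between 0.173 and 0.982). The interaction of trial and library group was largest for CASP12, 1.31 ± 0.53, with adjusted p = 0.39. It passed the threshold for none of the 5, with unadjusted p from 0.0103 for PYCARD to 0.076 for GSDMD, nor for any other of the genes tested (0%), of which 1466 had an unadjusted limma p under 0.05.

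GS-1 is a gene signature derived earlier from other dogs by comparing osteosarcoma with a reference osteoblast. A score was made as the mean standardized level of 26 of its genes. CASP12, itself a GS-1 gene, was left out of the score. All 5 genes rose with the score. The slope, in log2 units per SD of the score, was 1.27 ± 0.04 (SE) for CASP4, 1.31 ± 0.04 for CASP12, 0.97 ± 0.04 for NLRP3, 0.88 ± 0.04 for PYCARD and 0.47 ± 0.05 for GSDMD. As folds per SD of the score, these are 2.42, 2.49, 1.96, 1.83 and 1.38. The limma adjusted p was 2.25e-81 for CASP4, 1.06e-76 for CASP12, 8.05e-62 for NLRP3, 1.4e-54 for PYCARD and 8.6e-14 for GSDMD. A call alone says little here, because 47.8% of all genes tested were called and 21.9% were called as rising. By size of slope, 0.618% of genes rose more steeply than CASP4 and 0.454% more steeply than CASP12. For NLRP3, PYCARD and GSDMD those shares were 1.8%, 2.25% and 5.39%. CASP12 belongs to the signature, so its rank against the other signature genes is no independent result. Steep slopes were shared by other immune genes. They ran from 0.42 to 1.32 for the macrophage markers listed below, and from 1.40 to 1.78 for the T cell markers. In bulk tumor RNA, more cells of a type and more RNA per cell cannot be told apart.

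**Figure D2:**
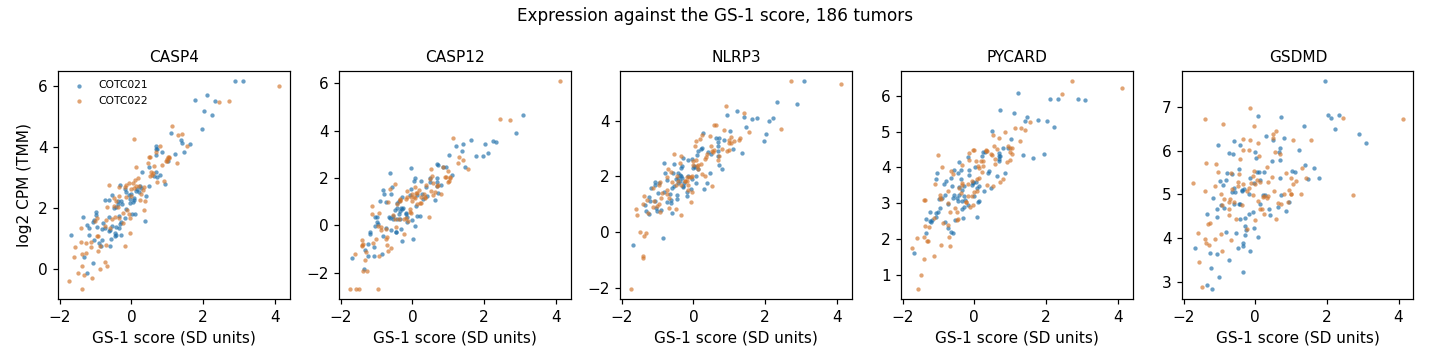
Log2 CPM after TMM normalization against the GS-1 score in SD units, 1 point per tumor, colored by trial, with a vertical scale of its own for each gene. CASP4, CASP12, NLRP3 and PYCARD climb in a narrow band (r of 0.92, 0.89, 0.87 and 0.85), and GSDMD climbs less and scatters more (r = 0.53).

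The caspases rose more steeply with the score than the rest of the 5. Ratios of 2 members were regressed on the score, a comparison chosen after the data were seen, over 10 pairs with Benjamini-Hochberg adjustment of two-sided permutation p. The slopes of CASP4 and CASP12 differed by -0.03 ± 0.06 log2 per SD (r = -0.04, adjusted p = 0.591), and this miss does not show that they were equal. CASP4 rose more than NLRP3 by 0.24 ± 0.05 (adjusted p = 2.86e-05) and more than GSDMD by 0.80 ± 0.07 (adjusted p = 1.67e-05). The closest pair that passed was NLRP3 over PYCARD, with a difference of 0.14 ± 0.06 (adjusted p = 0.0157). The slope of GSDMD was 0.61 in COTC021 and 0.32 in COTC022, a difference of -0.29 ± 0.11 with an unadjusted p of 0.00803 and an adjusted p of 0.999 in the limma fit. CASP12 differed the other way, by 0.23 ± 0.08 (adjusted p = 0.999). Over all genes, 1 of 13422 slopes (0.00745%) differed between the trials.

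The 5 genes were also correlated with each other across the 186 tumors. All 10 pairs were positive, and every permutation p was 1e-05 for Pearson's r, the smallest that 100000 resamples can give, with adjusted p = 1e-05. Over all genes tested, the share with r above 0.5 ran from 1.54% for GSDMD to 4.78% for PYCARD. CASP4 and CASP12 were the closest pair (r = 0.86, Spearman's rho = 0.85), followed by CASP4 with NLRP3 (r = 0.84, rho = 0.84). CASP4 with PYCARD, CASP12 with NLRP3, CASP12 with PYCARD and NLRP3 with PYCARD gave r of 0.81, 0.81, 0.80 and 0.77. GSDMD stood further off. Its r was 0.62 with PYCARD, 0.55 with CASP12, 0.51 with CASP4 and 0.38 with NLRP3. Without the 2 tumors farthest from the median, r was 0.85 for CASP4 with CASP12 and 0.38 for NLRP3 with GSDMD. Within COTC021 and COTC022, CASP4 with CASP12 gave 0.84 and 0.88, and NLRP3 with GSDMD gave 0.49 and 0.27.

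The correlations were lower once the GS-1 score was taken into account. After the score and the trial were removed from both genes, a step chosen after the data were seen, 6 of the 10 pairs passed an adjusted p of 0.05. This step was not run on pairs of other genes, so no background share stands beside that count. PYCARD with GSDMD, the adaptor and the pore-forming protein, then held the highest r, 0.39 (adjusted p = 0.0001), and it was positive in both trials (0.31 in COTC021 and 0.47 in COTC022). CASP4 with CASP12 was at 0.24 (adjusted p = 0.00555), with 0.14 among COTC021 dogs and 0.33 among COTC022 dogs. CASP4 with NLRP3 was at 0.21 (adjusted p = 0.0128), with 0.11 and 0.27 in the trials, 0.38 in the 50 libraries of greater depth and 0.17 in the others. CASP12 gave 0.22 with GSDMD (adjusted p = 0.00757) and 0.17 with PYCARD (adjusted p = 0.0308), and the latter was -0.04 in the 50 libraries and 0.22 in the others. NLRP3 with GSDMD turned to -0.20 (adjusted p = 0.013), and it was -0.19 in COTC021 and -0.21 in COTC022.

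Scores of cell markers, each the mean standardized level of a list, were compared with the 5 genes, giving 45 relations in 1 family together with the GS-1 score. The macrophage list (CSF1R, CD163, CD68 and others, 10 of 10 passing the filter) correlated most with PYCARD (r = 0.83, rho = 0.82) and NLRP3 (r = 0.83, rho = 0.81), and also with CASP4 (r = 0.82) and CASP12 (r = 0.80), each with a permutation p of 1e-05. GSDMD gave r = 0.48. Genes of the macrophage list differed widely, and r with CASP4 ran from 0.15 for CD68 to 0.89 for AIF1. The summed level of this list ran from 109 to 6938 CPM across tumors. The T cell score, from 4 of 6 genes, gave 0.78 for CASP4, 0.75 for CASP12, 0.69 for PYCARD, 0.62 for NLRP3 and 0.47 for GSDMD. Its summed level ran from 1.96 to 2714 CPM. The part of these cells in the levels of the 5 genes was not tested. Neutrophil markers gave lower values, from 0.295 to 0.438 for 4 genes and 0.07 for GSDMD (permutation p = 0.369). Genes of the neutrophil list differed as well, and r with NLRP3 ran from -0.13 for MPO to 0.53 for CSF3R.

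Genes of the bone compartment behaved otherwise. The osteoblast score fell as CASP4 rose (r = -0.43, rho = -0.39, permutation p = 1e-05), and r was -0.41 for NLRP3, -0.38 for CASP12 and -0.27 for PYCARD. For GSDMD it was -0.17 (permutation p = 0.0225), with -0.26 among COTC021 dogs and -0.04 among COTC022 dogs. All 5 osteoblast markers passed the filter, with a summed median of 1933 CPM and a range from 53.1 to 16722 CPM. The osteoclast score, from 5 of 6 genes, rose with PYCARD (r = 0.35, permutation p = 3e-05) and GSDMD (r = 0.26, permutation p = 0.00028), and gave 0.01 for CASP4, 0.10 for CASP12 and 0.10 for NLRP3. In the 50 libraries of greater depth those 2 values for PYCARD and GSDMD were 0.21 and 0.05. Endothelial markers gave their highest r with NLRP3 (0.32, permutation p = 3e-05), and skeletal muscle markers stayed between 0.07 and 0.17. None of 5 B cell genes and 1 of 3 keratinocyte genes passed the filter, and these lists were not scored.

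GSDMD was the member closest to the interferon response. With a score of 6 interferon-stimulated genes, among them MX1 and ISG15, it gave r = 0.73 (rho = 0.74, permutation p = 1e-05). CASP12 gave 0.55, PYCARD 0.51, CASP4 0.48 and NLRP3 0.35. The interferon score and the GS-1 score were themselves correlated at r = 0.50. Fitting both together, chosen after the data were seen, left GSDMD a slope of 0.57 ± 0.05 log2 per SD of the interferon score (limma adjusted p = 5.21e-22) and 0.19 ± 0.05 per SD of the GS-1 score (adjusted p = 0.000544). In this fit 14.9% of all genes tested were called on the interferon score and 45.8% on the GS-1 score. The GSDMD slope on the interferon score was 0.63 in COTC021, 0.52 in COTC022, 0.56 in the 50 libraries of greater depth and 0.55 in the others, each with adjusted p of 8.92e-05 or less. Its slope on the GS-1 score missed the threshold in COTC022 (0.11, adjusted p = 0.184) and in the 50 libraries (0.09, adjusted p = 0.484). CASP4 showed the other pattern, with 1.25 ± 0.04 on the GS-1 score and 0.05 ± 0.05 on the interferon score (adjusted p = 0.487). NLRP3 had a slope of -0.15 ± 0.05 on the interferon score (adjusted p = 0.0299), CASP12 0.17 ± 0.06 (adjusted p = 0.0275) and PYCARD 0.12 ± 0.05 (adjusted p = 0.0545). Within either trial and within either group of libraries, none of the last 3 passed.

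**Figure D3:**
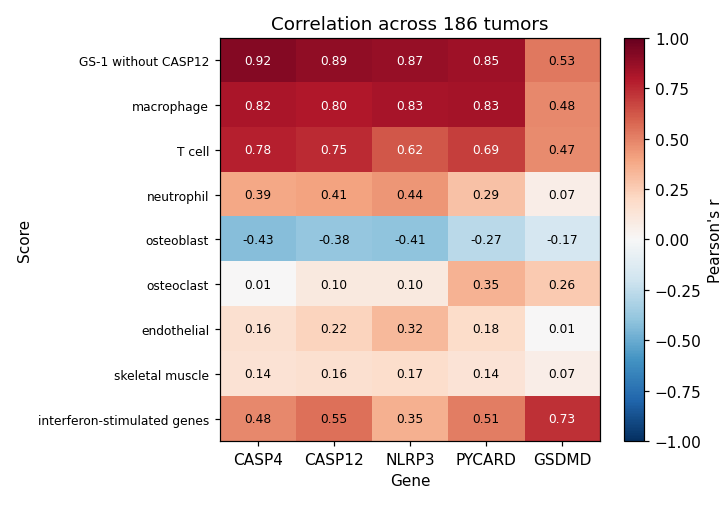
Pearson's r across 186 tumors between each of the 5 genes (columns) and the GS-1 score or a marker score (rows), with color from blue (negative) to red (positive). CASP4, CASP12, NLRP3 and PYCARD share high values with the GS-1 and macrophage scores, while GSDMD has its highest value, 0.73, with interferon-stimulated genes.

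The genes whose levels followed CASP4 most closely were DLA-DMB (r = 0.92), SASH3 (0.92), CD53 (0.92), HLA-DRB1 (0.92) and CD37 (0.91). Of these, DLA-DMB and HLA-DRB1 belong to class II antigen presentation, and CD53 and CD37 are tetraspanins of leukocytes. CASP12, which shares 4 of these 5 genes, was closest to SASH3 (0.89), CD53 (0.88), DOCK2 (0.86), CD37 (0.86) and DLA-DMB (0.86). Among the genes closest to NLRP3 were CD53 (0.89), MYO1F (0.88), CD180 (0.87) and EVI2B (0.87). PYCARD was closest to PARVG (0.90), DENND1C (0.90), ADA2 (0.90), WAS (0.87) and SELPLG (0.87). CD53 is a GS-1 gene. For GSDMD the list read IFI35 (0.79), B2M (0.75), IRF9 (0.73), PSME1 (0.73) and OAS2 (0.72). IRF9 is part of the transcription complex that type I interferon activates, OAS2 is an antiviral enzyme, and B2M and PSME1 serve class I antigen presentation. These values are a description over 186 tumors, and over all genes tested the median r was between -0.03 and -0.02 for each member.

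The rest of the pathway was followed through a list of 47 further gene names, which can include more than 1 name of a gene. Of these names, 36 had a row in the table and 25 passed the filter. No row was named CASP1, CASP5, AIM2 or NAIP. The annotation gives CASP1 as another name of CASP4, which was analysed, while CASP5, AIM2 and NAIP were not analysed here. Of the 25, 23 rose with the GS-1 score, 0 fell and 2 were not called, with a median slope of 0.48 beside -0.02 over all genes tested, of which 21.9% rose and 25.9% fell. Among sensors, NLRP12 rose by 0.70 ± 0.09 log2 per SD, NLRP1 by 0.67 ± 0.06 and CARD8 by 0.52 ± 0.06. NLRC4 had 0 counts in all libraries, and MEFV, the pyrin gene, reached 10 counts in 96 libraries without passing the filter. All 4 adaptors and cofactors rose, from 0.19 ± 0.04 for NEK7, which binds NLRP3, to 0.74 ± 0.07 for P2RX7, the ATP-gated channel that triggers it. GSDME, another pore-forming gasdermin, rose by 0.38 ± 0.06, and NINJ1, which ruptures the membrane after pore formation, by 0.26 ± 0.05.

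Inflammatory caspases mature the cytokines interleukin-18 and interleukin-1 beta. IL18 reached 10 counts in 181 libraries and rose by 1.07 ± 0.04 log2 per SD of the score (limma adjusted p = 1.02e-63). It was correlated with CASP4, CASP12 and NLRP3 at r = 0.83 each. IL1B had a median of 1 count, reached 10 counts in 14 libraries and was not tested, although its highest level was 52.9 CPM. The receptor antagonist IL1RN rose by 0.71 ± 0.05 and IL18BP, which binds and blocks interleukin-18, by 0.72 ± 0.07. Of 5 inhibitors that passed the filter, 3 rose. DPP8 and DPP9, the peptidases that restrain NLRP1 and CARD8, were not called (0.03 ± 0.03 and -0.04 ± 0.03). All 10 priming and interferon-side genes that passed the filter rose, from RELA (0.12 ± 0.03) to GBP5 (1.47 ± 0.08), a guanylate-binding protein induced by interferon-gamma.

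Apoptotic caspases were listed beside them. Of 8 genes, 7 passed the filter, 4 rose and 3 were not called, with a median slope of 0.13. All 4 calls were rises, beside the 21.9% of all genes tested that rose and the 47.8% called in either direction. With 7 genes tested, this count is not read as a result about these caspases. CASP8, the initiator of death-receptor apoptosis, rose most (0.48 ± 0.06), a slope beside that of GSDMD. CASP2 was lowest (-0.02 ± 0.04, limma adjusted p = 0.618). No gene of either list differed between the trials.

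The members were also set beside their chromosomal surroundings, which were examined after the data were seen. The 61 genes within 1 Mb of GSDMD on chromosome 13 had a median r of 0.24 with it, and 58 of them were positive. The median was -0.01 over the rest of that chromosome and -0.02 over other chromosomes, where 45.9% of genes were positive and 11.9% exceeded the median of the neighbors. That last share was 18.8% in COTC021, 9.21% in COTC022, 24.8% in the 50 libraries of greater depth and 9.14% in the others. The closest were MAF1 (r = 0.56), GRINA (0.55) and GFUS (0.52). With the GS-1 score itself, these gave r of 0.06, 0.22 and 0.14. When the GS-1 score, the interferon score and the trial were removed from all genes, the median over the neighbors was 0.34. All 61 neighbors were then positive, beside 47.5% of genes on other chromosomes, of which 0.516% exceeded that median. This removal was run for GSDMD alone. The unadjusted median was 0.21 in COTC021, 0.29 in COTC022, 0.19 in the 50 libraries of greater depth and 0.27 in the others. The 7 tested genes within 1 Mb of NLRP3 and the 55 within 1 Mb of PYCARD had medians of -0.003 and -0.006. Near PYCARD, the leukocyte genes ITGAL (0.76), SPN (0.72) and ITGAX (0.66) were exceptions. CASP4 and CASP12 had 5 tested neighbors each, with medians of 0.05 and 0.15, the correlated pair included.

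**Figure D4:**
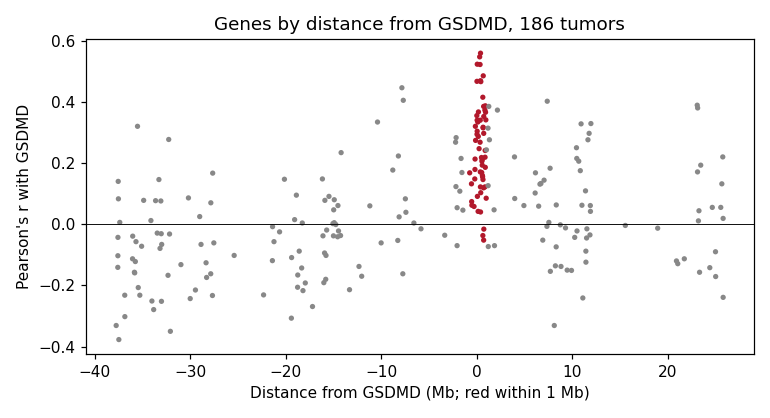
Pearson's r with GSDMD across 186 tumors for genes on the same chromosome, by distance from GSDMD in Mb, with genes within 1 Mb in red. The red points lie mostly above 0, with a median of 0.24, and the grey points scatter around 0, with a median of -0.01.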

How the data were processed

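The authors prepared stranded mRNA libraries, trimmed reads with cutadapt, aligned them with STAR 2.7.0f to the canine build GSD_1.0, quantified genes with RSEM 1.3.1 and deposited expected counts per gene, without normalization. RSEM divides reads that map to several genes, and 3.07% of values were not exact whole numbers, with no tolerance. None of the values of the 5 genes was among them. Values were rounded here. Of 198 columns, 12 match no sample title and were not used. No 2 libraries were identical.

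Genes were filtered with filterByExpr (minimum count 10, minimum proportion 0.5, large n 5) in edgeR 4.0.16, scaled by TMM and tested by voom and limma 3.58.1 (R 4.3.3), with Benjamini-Hochberg adjustment over 13422 genes and a threshold of 0.05. DESeq2 1.42.0 and edgeR's quasi-likelihood fit were alternatives. The GS-1 score used log2(CPM + 2), and its fit included the trial. The fit was tested on simulated data over 13422 genes. For the score, with folds per SD of the score, it called 48 of 50 genes changed 1.5-fold and 50 of 50 changed 2-fold, with 16 of 13222 unchanged genes called. For the trial, with the same folds between the trials, it called 40 of 50 and 46 of 50, with 10 wrongly called. Counts were drawn independently for each gene, so the numbers of wrong calls need not hold for the tumors. Correlations used TMM log2 CPM and two-sided permutation tests of 100000 resamples (10000 in the alternatives) in Python 3.11.15 with numpy 2.4.6, scipy 1.17.1 and pandas 2.3.3, and figures matplotlib 3.10.9. At these depths 10 counts were the minimum for detection.

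Samples were grouped by the trial in their labels. GS-1 clusters, DFI and OSv, which the sample labels do not carry, were not used here. The members, the lists and the markers were chosen with earlier results of these data known. Genes named are the members, the 5 genes with a symbol most correlated with each, IL1B, IL18, NLRC4, NLRP1, MEFV, IL1RN, GSDME and CASP8, and the highest and lowest slope of each list. P2RX7, NEK7, NLRP12, CARD8, NINJ1, IL18BP, DPP8, RELA, GBP1 and the chromosomal neighbors were named after their values were seen. A few genes that meet these rules are not reported here. Gene positions are those of RefSeq for UU_Cfam_GSD_1.0. The order of the genes by level was not computed, because transcript lengths were not used here.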

Additional observations from a re-analysis of the deposited data

How the results depend on the processing

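The slopes of the 5 genes on the GS-1 score stayed positive and past the threshold under all alternatives with the GS-1 score as the one score fitted, from 1.16 to 1.36 for CASP4, 1.20 to 1.42 for CASP12, 0.87 to 1.05 for NLRP3, 0.80 to 0.92 for PYCARD and 0.31 to 0.61 for GSDMD. With the interferon score in the fit, GSDMD was at 0.19, and it missed the threshold within COTC022 (0.11) and within the 50 libraries (0.09). Genes called on the score numbered 6420, against 3347 within the 50 libraries of greater depth and 3277 within COTC021. The cause of these lower counts was not tested. Genes called between the trials numbered 2, against 0 with library totals alone, 0 within the 50 libraries, 5 within the other 136, 129 with edgeR and 91 with DESeq2, and 1332 had an unadjusted limma p under 0.05. None of the 5 genes was among the calls. Their trial difference turned sign within the 50 libraries (CASP4 0.55, CASP12 0.52, NLRP3 0.47, PYCARD 0.51), within the other 136 (GSDMD -0.013), with edgeR (CASP12 0.013, GSDMD -0.032) and with DESeq2 (GSDMD -0.038). The cause was not tested.

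All 10 pairs of members were called within trials, within groups of libraries, without the 2 farthest tumors and with other scalings, and 6 after removal of the GS-1 score and trial, where NLRP3 with GSDMD turned to -0.20. Correlations with the scores were not tested for other genes, so no background share stands beside the count that follows. In the limma fits, 47.8% of all genes tested were called on the GS-1 score and 23.2% on the interferon score alone. Of 45 relations with scores, 37 were called, and between 30 and 36 in the alternatives. Those that turned sign were CASP4 with the osteoclast score (-0.007 in COTC021, -0.12 in the 50 libraries, -0.007 without the 2 farthest), CASP12 with the osteoclast score (-0.005 in the 50 libraries), and GSDMD with the endothelial score (-0.11 in COTC022, -0.001 without the 2 farthest). At minimums of 5 and 20 counts, CASP4 was detected in 186 and 159 libraries, CASP12 in 169 and 103, and NLRP3 in 162 at 20 counts.

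A score without macrophage, T cell and neutrophil markers was not run, because no gene of the score is in those lists by name. The GS-1 score still holds related genes, such as C1QB, while the macrophage list holds C1QA and C1QC. All 10 macrophage markers and all 4 T cell markers tested rose with the GS-1 score. The GS-1 score and these cell scores are therefore not independent readouts. The order by level and its alternatives were not run. No paired analysis was possible because each library is from a different dog. The labels name no dog of COTC021 as the match of a dog of COTC022. Depth limits CASP12 most, with under 10 counts in 44 libraries.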
